A study of Mus musculus with 4 samples.

Results

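Cells of the mouse femoral epiphysis (wild type) were compared between postnatal day 7 and postnatal day 8, with 1 droplet single-cell RNA library for each day. Cells were chosen from the 25355 deposited barcodes of these libraries by 3 cutoffs: at least 500 detected genes, at least 1000 unique molecular identifiers (UMIs, which count captured RNA molecules) and at most 15% of UMIs from the mitochondrial genome. This kept 22773 cells, 11309 of 12886 barcodes on day 7 (87.8%) and 11464 of 12469 on day 8 (91.9%), out of 54192 barcodes in the whole series of 4 days. Both groups were wild type and untreated as far as the labels say, and the labels give the same handling for both: enzyme digestion at body temperature, straining, removal of red blood cells and capture on a MobiNova-100 droplet instrument with a 3′ kit. The digestion step of that text is written for a bowel cancer sample, so it may not describe how the epiphysis was handled. How many animals went into each library, and of which sex, the labels do not say.

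The femoral epiphysis at this age is a block of cartilage at the end of the bone. Its chondrocytes secrete a matrix of collagen II and aggrecan, and they range from resting cells through columns of dividing cells to hypertrophic cells that make collagen X, while surface cells facing the joint make lubricin. In the first postnatal weeks vessels grow into this cartilage together with macrophages and osteoclasts, and the secondary ossification centre and its marrow form there. The title of the series concerns a link between cartilage and blood formation through endothelium, which gives the question behind the day-by-day sampling.

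The libraries were of like depth. Day 7 held 44218720 UMIs and day 8 held 46534365, and kept cells had medians of 3103 and 3168.5 UMIs, 1336 and 1399.5 genes, and 1.61% and 1.48% mitochondrial UMIs. The libraries shared 84 barcode sequences, 0.652% of the day-7 and 0.674% of the day-8 barcodes. With 1 library a day there is no replicate error and no test. Intervals are exact 95% intervals (Poisson for sums of UMIs, Clopper-Pearson for shares of cells) and cover counting error only, so differences between animals, dissections and library preparations are not in them and cannot be told apart from the day. A gene is called different below when its summed level in CPM (UMIs per 1000000 UMIs of the same cells) differed by at least 1.5-fold among genes with at least 20 UMIs over both libraries. Log2 ratios are of day 8 over day 7 with 1 UMI added to each sum.

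The libraries stood apart in their mix of sexes and in the levels of 2 kinds of RNA that touched all classes of cells. The mix of sexes differed. Xist, the RNA that coats the inactive X chromosome of female cells, had a UMI without any Y-linked UMI in 22.7% of day-7 cells and 40.3% of day-8 cells after each cell was thinned to 1000 UMIs, and Y-linked genes had one without Xist in 14.5% and 7.49%. Results are therefore given also within Xist-only and within Y-only cells, set by all UMIs of each cell without thinning. By all UMIs, Xist-only cells were 32.5% of day-7 and 60.4% of day-8 cells, and Y-only cells 28.3% and 12.9%. Both marks were found in 9.52% and 8.61% of cells, so a mark does not give the sex of a cell with certainty. Rn18s, the 18S ribosomal RNA, was lower on day 8 in every class with enough cells, from 2.40-fold lower in osteoclasts to 4.45-fold lower in erythroid cells, and 3.12-fold lower in chondrocytes. Hemoglobin RNA made up 0.133% of UMIs on day 7 and 0.411% on day 8, and Hbb-bs, an adult beta globin, was higher on day 8 in chondrocytes, endothelium and macrophages alike.

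Cells were assigned to classes by gates, each a set of 8 marker genes of which at least 3 had to have a UMI. For the erythroid gate 7 of the 8 symbols were found in the files. Cells that passed a blood, endothelial or other non-skeletal gate joined it whatever their chondrocyte markers. The classes carry the names of their gates. In the 8 classes described most below, 135 of 142 checks of a second, separate marker set found the marker at least 2-fold higher than in the reference cells. Col2a1, the main collagen of cartilage, was at 44764 and 32459 CPM in gated chondrocytes on day 7 and day 8. It was at 3884 and 4445 in macrophages and at 5795 and 5310 in endothelium. All gated chondrocytes had a UMI of it on both days, but its presence alone does not mark a chondrocyte. It also had one in all macrophages and all endothelial cells, so cartilage RNA was present in droplets of these classes too. The chondrocyte gate is loose for this reason, and 89.5% of day-8 endothelial cells also passed it. A stricter set, called cartilage-rich below, held the gated chondrocytes with at least 10 gate-marker UMIs per 1000. That cutoff was set after the data were seen, and 9.89% of day-7 and 9.86% of day-8 cells lay near it, between 8 and 12.

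The makeup of the cells differed strongly between the days. Gated chondrocytes were 95.7% of cells on day 7 (10828 cells, interval 95.4 to 96.1) and 81.8% on day 8 (9382 cells, 81.1 to 82.5). Cartilage-rich chondrocytes were 83.5% (82.8 to 84.2) and 57.5% (56.6 to 58.4). Gated chondrocytes below that cutoff made up 12.3% of cells on day 7 and 24.4% on day 8. Both measures were lower on day 8, and the stricter measure differed more.

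Most other classes were larger shares on day 8. Shares of a library have a fixed total, so a lower chondrocyte share goes with higher shares of the rest, and the classes are not independent. Blood classes together were 3.31-fold higher. Endothelial, mural, muscle and Schwann cells together were 3.88-fold higher, and mesenchymal classes besides chondrocytes 6.07-fold. Macrophages, which clear debris in growing cartilage canals and marrow, were 84 cells on day 7, 0.743% (0.593 to 0.919), and 395 cells on day 8, 3.45% (3.12 to 3.8), a 4.64-fold higher share. Endothelial cells, which line vessels, were 56 cells, 0.495% (0.374 to 0.643), and 276 cells, 2.41% (2.13 to 2.7), which is 4.86-fold higher. Neither pair of intervals overlapped. Osteoclasts, the cells that resorb mineralised matrix, went from 64 cells (0.566%) to 174 (1.52%), and mural cells, which wrap vessels, from 51 (0.451%) to 137 (1.2%). These shares were 2.68-fold and 2.65-fold higher on day 8, smaller differences than for macrophages and endothelium.

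Connective tissue classes were larger as well. The tendon and ligament class held 32 cells on day 7 (0.283%) and 233 on day 8 (2.03%), a 7.18-fold higher share. Fibroblasts held 31 cells (0.274%) and 156 (1.36%), 4.96-fold higher, and osteoblasts, which lay down bone, 1 and 12 cells. Many more cells passed these gates while carrying more chondrocyte markers: the tendon gate was passed by 2.1% of all cells on day 7 and 10.6% on day 8 whatever their chondrocyte markers. Tenomodulin-type genes in gated chondrocytes, given further on, move with this count.

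All blood classes together were 235 cells on day 7, 2.08% (1.82 to 2.36), and 788 cells on day 8, 6.87% (6.42 to 7.35). Monocytes, the circulating precursors of many macrophages, numbered 23 (0.203%) and 77 (0.672%), and B-lineage cells 7 (0.0619%) and 35 (0.305%). Progenitors, gated on genes such as Kit, Flt3 and Mpo, numbered 6 on day 7, 0.0531% (0.0195 to 0.115), and 27 on day 8, 0.236% (0.155 to 0.342). These classes had intervals that did not overlap, on few cells. Erythroid cells (40 and 52), neutrophils (6 and 13), T and NK cells (3 and 6), dendritic cells (1 and 6), reticular stromal cells (3 and 11), Schwann cells (3 and 15), muscle cells (0 and 5), megakaryocytes (0 and 2) and mast cells or basophils (1 in each library) had overlapping intervals. A count of 0 on day 7, with the limit taken as 3 counts of the total, allows a share of up to 0.0265%.

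Among blood cells alone the balance also differed. Macrophages were 35.7% of blood cells on day 7 and 50.1% on day 8, and erythroid cells were 17% and 6.6%, both with intervals that did not overlap. Osteoclasts (27.2% and 22.1%), monocytes (9.79% and 9.77%) and progenitors (2.55% and 3.43%) had overlapping intervals within blood. Red cells were removed before capture, so the erythroid share can be set by that step. In all, 10 of 20 classes had a higher share on day 8 with intervals apart, 1 had a lower share (chondrocytes) and 9 overlapped. These are not separate results, since the shares of a library have a fixed total.

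**Figure D1:**
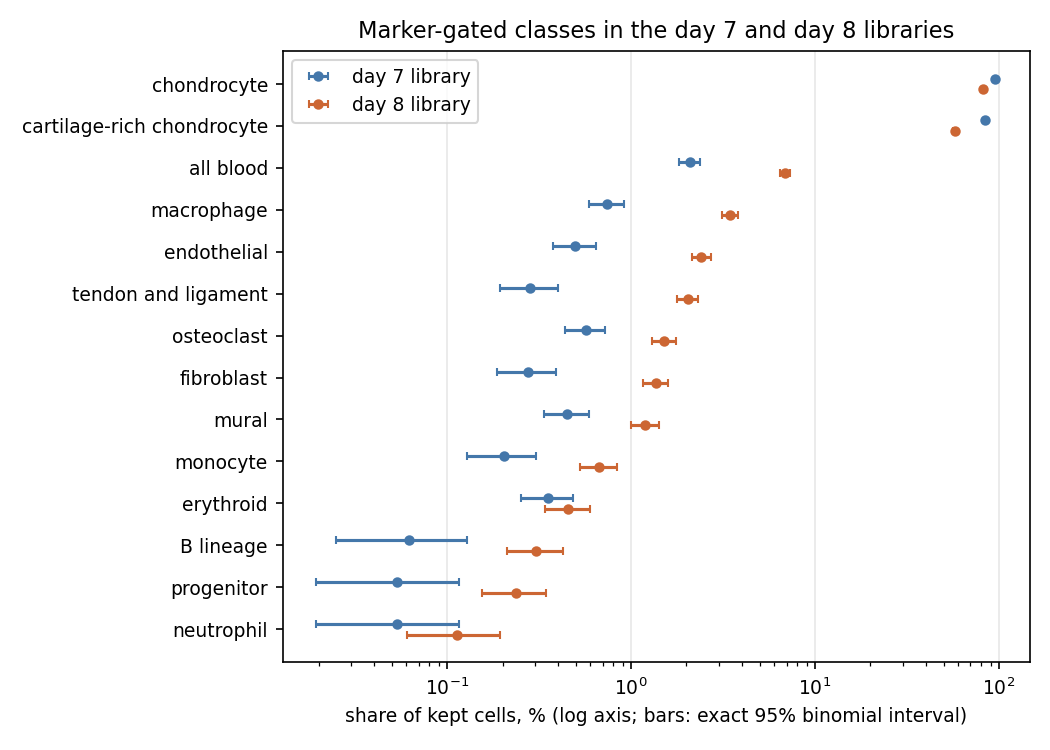
Share of kept cells in each marker-gated class, in percent on a log axis, for the day-7 library and the day-8 library, with exact 95% Clopper-Pearson intervals as bars. Endothelial cells are at 0.495% and 2.41% and macrophages at 0.743% and 3.45%, while chondrocytes are lower on day 8, at 81.8% against 95.7%.

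Within cells of either sex-linked mark the larger classes differed in the same direction but by other amounts. In Xist-only cells the endothelial share was 0.871% on day 7 and 2.05% on day 8, 2.35-fold higher, and in Y-only cells 0.312% and 3.44%, 11.0-fold higher, the latter on 10 cells against 51. Macrophage shares were 3.87-fold higher in Xist-only and 4.40-fold higher in Y-only cells. The tendon class was 3.96-fold and 14.0-fold higher, fibroblasts 2.22-fold and 9.07-fold, osteoclasts 2.65-fold and 2.16-fold, and mural cells 1.61-fold and 2.82-fold. Intervals overlapped for mural cells in both sets, on 25 and 76 Xist-only and 13 and 17 Y-only cells. They also overlapped for Y-only osteoclasts, with 17 cells on each day. Gated chondrocytes were lower on day 8 in both, 83.5% against 95.1% in Xist-only and 81.9% against 96.3% in Y-only cells. Smaller classes did not all share a direction. The monocyte share was 4.09-fold higher on day 8 in Xist-only cells and lower in Y-only cells, with a log2 ratio of -0.475 on 6 and 2 cells. Erythroid cells were 1 and 44 among Xist-only cells, and 17 (0.531%) and 1 (0.0674%) among Y-only cells. Whether the differences in size between Xist-only and Y-only cells exceed the spread between animals was not tested.

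**Figure D2:**
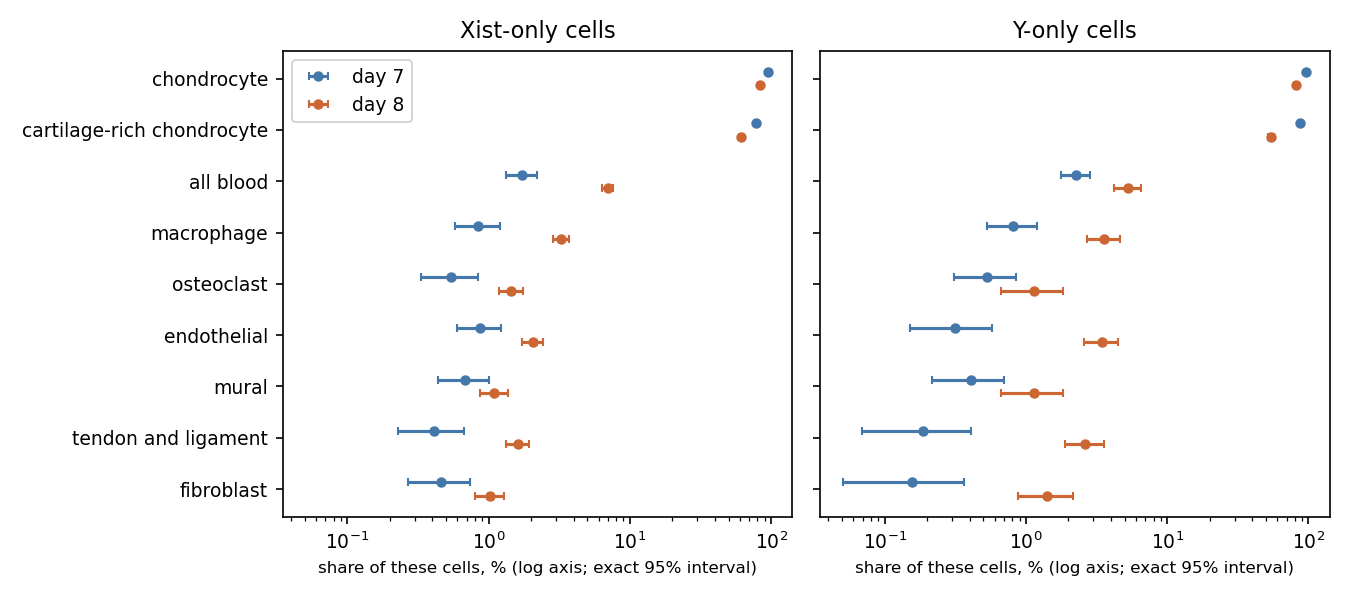
Shares of the larger classes on day 7 and day 8, in percent on a log axis, within Xist-only cells and within Y-only cells, with exact 95% intervals. Endothelial cells are 0.871% and 2.05% of Xist-only cells and 0.312% and 3.44% of Y-only cells, so the day-8 share is higher in both.

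Subsets within the gated chondrocytes were counted with the same kind of gate, and a cell could belong to more than 1 subset. Dividing chondrocytes, with at least 3 of 8 mitotic genes, were 5.24% on day 7 (4.82 to 5.67) and 9.92% on day 8 (9.33 to 10.5). In cartilage-rich cells they were 5.1% and 9.15%. The articular surface subset was 25% (24.2 to 25.8) and 33.6% (32.7 to 34.6), or 22.3% and 27.6% in cartilage-rich cells. The hypertrophic subset was 3.91% and 5.08%, or 4.05% and 5.52%. These subsets were larger on day 8 under both definitions. The resting subset was smaller on day 8, 22.1% against 25.4%, but its intervals overlapped in cartilage-rich cells (25.6% and 23.9%), and the prehypertrophic subset overlapped in both.

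Gene levels within gated chondrocytes were then compared over 19297 genes. Levels on day 8 passed 1.5-fold upward for 2538 genes (13.2%) and downward for 1107 (5.74%), and the median log2 ratio of all genes was 0.09. Scaling by trimmed means (TMM) instead of total counts gave 2111 higher and 1406 lower, so 60.0% of calls were higher against 69.6% on the CPM scale. In cartilage-rich cells 10.9% were higher and 5.38% lower, with a median of 0.05. Each count of a gene list below is read against these shares. A lower summed level can mean fewer cells using a gene or less RNA in each, and these cannot be told apart from sums alone.

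Cartilage matrix genes, some of them gate markers such as Acan, differed little. None of 18 was called in either direction, and their log2 ratios ran from -0.52 to -0.08 with a median of -0.20. Col2a1 was at 44764 CPM on day 7 and 32459 on day 8, Acan (aggrecan, the large water-binding proteoglycan) at 2182 and 1936, and Comp, a matrix bridging protein, at 1349 and 1011. In cartilage-rich cells, which were chosen by matrix genes, the median was -0.04. There Acan was at 2363 and 2366 CPM, while Col2a1 was at 48337 and 39966, a log2 ratio of -0.27, and Comp had a ratio of -0.29. Neither the resting-zone list (7 genes, median -0.16) nor the chondroitin sulfate synthesis list (16 genes, median -0.07) had a called member.

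The articular surface list was higher on day 8, with 7 of 10 genes called higher, none lower and a median of 0.89. Prg4 encodes lubricin, the boundary lubricant of joints, and was at 2786 CPM on day 7 (2770 to 2803) and 5445 on day 8 (5420 to 5469). It had a UMI in 50% of thinned chondrocytes on day 7 and 63.2% on day 8. Macrophages, which should not make it, had it in 23.8% and 44.8% of thinned cells, with median depths of 7277 and 5196 UMIs in macrophages against 3079.5 and 3153 in chondrocytes. Prg4 in droplets of macrophages was thus also higher on day 8, and the part of free RNA in the chondrocyte difference was not tested. Cilp, a matrix protein of the middle cartilage layer, was at 20.8 and 53.7 CPM, and Dkk3, a secreted Dickkopf family protein, at 11.9 and 36.5. Vit (33.9 and 59.8), Creb5, a transcription factor of the joint surface (160 and 243), Abi3bp (256 and 536) and Htra4 (0.872 and 6.76 CPM, on 35 and 239 UMIs) were the other called members. Erg, Gdf5 and Cytl1, which mark the young joint surface too, were not called, at 108 and 89.0, 5.43 and 4.81, and 327 and 295 CPM. In cartilage-rich cells 5 were called higher, the list median was 0.60 and Prg4 was at 2299 and 3900 CPM. The medians were 0.76 in Xist-only and 1.33 in Y-only chondrocytes, so the direction was the same in both.

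Hypertrophic genes were higher in part, with 3 of 10 called higher and a median of 0.40. Col10a1, the collagen of hypertrophic cartilage, was at 179 CPM on day 7 and 377 on day 8, and at 192 and 434 in cartilage-rich cells. Its log2 ratio was 1.08 in all gated chondrocytes, 1.11 in Xist-only and 0.71 in Y-only chondrocytes. Ibsp, a mineral-binding sialoprotein, was at 150 and 237 CPM, and Mmp13, the collagenase of the cartilage to bone border, at 271 and 468, with log2 ratios for Mmp13 of 0.19 in Xist-only and 1.34 in Y-only cells. In cartilage-rich cells Ibsp was still higher (28.2 and 54.5) but Mmp13 was not (77.5 and 70.1), so most Mmp13 and Ibsp UMIs of the gated class sat in cells poor in cartilage RNA. The UMIs were unevenly spread. On day 7, 10 gated chondrocytes held 49.4% of the Col10a1, 65.5% of the Ibsp and 46.0% of the Mmp13 UMIs. On day 8, 10 cells held 34.9%, 43.2% and 29.5% of them. Among prehypertrophic genes the only call was Bmp6, a bone morphogenetic protein, lower at 168 and 100 CPM. Ihh, the hedgehog ligand of that zone, was at 35.5 and 41.7 and was not called.

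Mitotic genes were higher on day 8 almost throughout. Of 20 genes of G2 and mitosis, 18 were called higher and none lower, with a median of 0.66, and of 17 S phase genes 4 were called higher, with a median of 0.33. Top2a, which untangles chromosomes, was at 69.5 and 113 CPM and in 4.42% and 6.79% of thinned cells. Cenpf, a kinetochore protein, was at 58.6 and 107, and Mki67, a proliferation marker, at 42.5 and 65.8. In cartilage-rich cells 7 of the 20 were called higher, with a median of 0.55. The medians were 0.62 in Xist-only and 0.70 in Y-only cells. With the cells of the dividing subset left out the median was 0.42.

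Heat shock genes were higher on day 8. Of 15 genes, 8 were called higher and none lower, with a median of 0.70 (0.53 in cartilage-rich, 0.60 in Xist-only and 0.56 in Y-only cells). Heat shock factors bind short inverted repeats in promoters, and the gene pair that encodes inducible HSP70 is the standard example of their targets. The 150 bases before the start of both genes are shown because the day-8 difference of this pair was among the larger ones of widely detected genes. They are from RefSeq on build GRCm38.p6, which is not the build of the count tables, on the minus strand at chr17:34972157-34972306 for Hspa1a and chr17:34959239-34959388 for Hspa1b, with the match to GAANNTTC in capitals.
Hspa1a: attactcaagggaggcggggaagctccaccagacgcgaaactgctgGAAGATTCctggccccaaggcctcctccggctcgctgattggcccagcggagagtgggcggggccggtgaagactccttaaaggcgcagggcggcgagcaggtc
Hspa1b: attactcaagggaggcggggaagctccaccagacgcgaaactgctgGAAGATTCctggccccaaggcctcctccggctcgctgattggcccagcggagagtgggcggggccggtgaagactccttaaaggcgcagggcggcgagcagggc

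The promoters of the HSP70 pair matched at 149 of 150 bases, and each held 1 match to GAANNTTC, searched on both strands. Of 32851 RefSeq promoters, 1297 (3.95%) held such a match within the same 150 bases, so it is a description and no sign of binding. The transcripts are near-identical too, so reads may have been split between the genes and their separate values are uncertain. Hspa1a was at 295 CPM (290 to 301) on day 7 and 592 (584 to 600) on day 8, and Hspa1b at 240 and 515. Hspa1a was in 19.8% and 31% of thinned chondrocytes, and in 31% and 45.8% of thinned macrophages. Hspb1, a small heat shock protein, was at 57.8 and 162 CPM, Hsph1, a co-chaperone, at 78.4 and 160, Cryab, another small chaperone, at 50.5 and 100, and Hsp90aa1, the inducible HSP90, at 778 and 1278. Hspa8, the constitutive relative, was at 663 and 799 and was not called. The pair was higher in Xist-only and Y-only chondrocytes, with log2 ratios for Hspa1a of 1.13 and 0.73. In cartilage-rich cells Hspa1a was at 257 and 419 CPM, with log2 ratios of 0.93 in Xist-only and 0.24 in Y-only cells, so it was not called in the latter.

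Immediate early genes, which cells switch on within minutes of a stimulus, did not move with them. None of 24 was called in chondrocytes, their median was -0.05, and Fos was at 4895 and 5032 CPM. The unfolded protein response had 1 call among 18 genes, Chac1, which was lower, and a median of -0.02. The heat shock list had a median above 0 in macrophages, endothelium, osteoclasts and mural cells as well, with values given for each class further on. Monocytes, on 23 and 77 cells, had Hspa1a at 1155 and 915 CPM, lower on day 8.

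Metallothioneins, small proteins that bind zinc and copper, were lower on day 8. Mt1 was at 1581 CPM (1569 to 1593) on day 7 and 705 (696 to 714) on day 8 and in 50.1% and 30.1% of thinned chondrocytes. Mt2 was at 950 and 397 CPM and in 36.3% and 18.2% of them. In macrophages Mt1 was at 804 and 777 CPM and in 52.4% and 41.5% of thinned cells, so its chondrocyte difference was not shared there. Endothelial cells had Mt1 at 219 and 96.9. Slc30a1, a zinc exporter driven by the same zinc sensor, was at 15.2 and 8.28 CPM in chondrocytes. Of 8 genes in the list these 3 were lower, Mt3 was higher on 30 and 51 UMIs, and the median was 0.01. Mt1 was lower in both sets of cells split by sex-linked RNA, with log2 ratios of -0.68 in Xist-only and -1.58 in Y-only cells. It was also lower in cartilage-rich cells, at 1619 and 724 CPM.

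Other metabolic lists moved little. Of 22 glycolysis and hypoxia genes only Ankrd37 (4.29 and 8.42 CPM) and Adm (1.55 and 3.87) were called, both higher, with a median of 0.16. Of 21 genes of cholesterol and fatty acid synthesis, Mvd and Lss were called lower and the median was -0.39, or -0.23 in cartilage-rich cells. Lss, which closes the sterol rings, was at 52.3 and 29.9 CPM. Nuclear genes of oxidative phosphorylation (18 genes, median 0.21) and the mitochondrial genome (12 genes, median 0.04) had no call.

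Imprinted and growth-related genes were lower where called. Of 19 genes, 4 were called lower and none higher, with a median of -0.18. Meg3, a noncoding RNA of the Dlk1 cluster, was at 2761 CPM on day 7 and 1790 on day 8, and Dlk1, which restrains differentiation, at 2332 and 1552. Mirg, from the same cluster, was at 140 and 80.1. Lin28b, which blocks let-7 processing in fetal tissue, was at 43.2 and 16.8, with log2 ratios of -1.25 in Xist-only and -1.78 in Y-only cells. Rian of the same cluster (543 and 372) and H19 (2194 and 1916) were not called. In Y-only chondrocytes Meg3 and Dlk1 were not called either, with log2 ratios of -0.39 and -0.27.

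**Figure D3:**
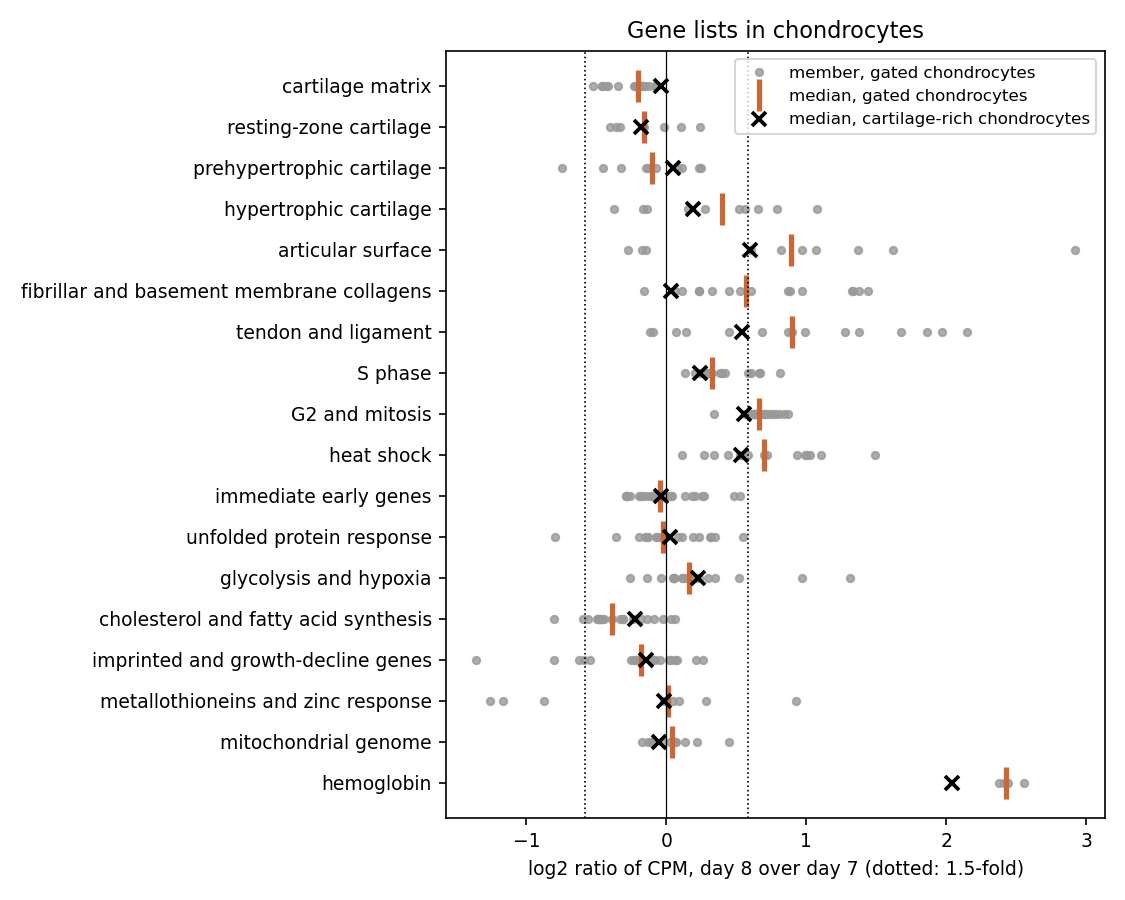
Log2 ratios of day 8 over day 7 in gated chondrocytes for the members of selected gene lists, 1 grey point a gene. The upright bar is the list median, the cross is the median in cartilage-rich cells, and dotted lines mark 1.5-fold. The articular surface, heat shock and mitosis lists have medians of 0.89, 0.70 and 0.66, and cartilage matrix lies at -0.20.

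Genes of connective tissue were higher in gated chondrocytes on day 8. Of 15 tendon and ligament genes 10 were called higher, with a median of 0.90, and of 16 other collagens 8, with a median of 0.57. Col1a1, the main collagen of bone, tendon and skin, was at 2545 and 6607 CPM and in 48.9% and 73.4% of thinned chondrocytes. It was also in 28.6% and 53.9% of thinned macrophages, a class that should not make it. Tnmd, a tendon membrane protein, was at 32.8 and 120 CPM, Kera, a corneal and tendon proteoglycan, at 4.96 and 22.1, and Aspn, a leucine-rich proteoglycan, at 48.9 and 143. Kera and Aspn were the 2 of 13 small proteoglycan genes called. In cartilage-rich cells the tendon list had 7 calls and a median of 0.54, while the collagen list had 4 and a median of 0.03.

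Genes of other cell types were also higher in gated chondrocytes. All 4 hemoglobin genes were called higher, with a median of 2.43, and their summed level was 644 CPM on day 7 and 3599 on day 8. In cartilage-rich cells the sum was 501 and 2195 CPM. Of 12 pan-hematopoietic genes 11 were called higher (median 1.42), of 13 resident macrophage genes 10 (1.26), of 10 marrow monocyte genes 10 (1.59), of 14 osteoclast genes 9 (0.69), and of 16 capillary and tip-cell endothelial genes 11 (1.12). The classes that make these genes were larger on day 8, and the part of free RNA and of droplets with more than 1 cell was not tested. In the same gated cells, and with the same mixture not separated, members were called higher among marrow niche factors (7 of 11, median 0.89), angiogenic ligands (6 of 17, 0.50), angiogenesis inhibitors (6 of 12, 0.56) and IGF and FGF signalling (10 of 21, 0.13). Other signalling lists differed less: BMP and TGF-beta genes had 3 called higher and 2 lower of 25, and Wnt genes 4 and 2 of 21. Interferon response genes had 10 called higher and 2 lower of 20 (median 0.62), at low levels: over members with at least 100 UMIs the median was 0.15. Inflammation genes had 11 higher and 1 lower of 24 (0.48), with a median of -0.07 in cartilage-rich cells. Kitl, the stem cell factor, was at 7.18 and 15.4 CPM, and Igf1 at 29.2 and 72.1. In cartilage-rich cells Kitl was at 5.89 and 11.8.

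Genes used by many cells gave a shorter account. Of 602 genes with a UMI in at least 20% of thinned chondrocytes on either day, 16 (2.66%) were called higher and 16 (2.66%) lower. In cartilage-rich cells 10 of 594 were higher (1.68%) and 13 lower (2.19%). Calls were rarer here than over all genes, which include genes with as few as 20 UMIs. Counting error is larger for such genes, so these shares do not compare like with like. Beside Prg4 and the HSP70 pair, the higher ones included Tmsb4x, which binds actin monomers (119 and 360 CPM in cartilage-rich cells), Xist (323 and 696), S100a6 (212 and 334) and Hsp90aa1. The lower ones included Rn18s (14810 and 4782), Neat1, a nuclear noncoding RNA (804 and 520), Samd4, a translational repressor (508 and 328), Pcdh9, a cell adhesion protein (411 and 272) and Camk1d, a kinase (252 and 114), beside Mt1, Mt2 and Meg3.

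Msmp, a small secreted chemotactic protein, had one of the lowest day-8 ratios of all genes, and a few cells held most of it. It was at 2364 CPM in chondrocytes on day 7 and 472 on day 8. Cells with at least 50 Msmp UMIs were 147 of 11309 on day 7, 1.3% (1.10 to 1.53), and held 87.3% of its UMIs. On day 8 they were 39 of 11464, 0.34% (0.242 to 0.465), with 74.9%. Of the day-7 cells 144 were gated chondrocytes, and 95 were Xist-only and 19 Y-only. Wfdc2, a protease inhibitor of epithelia, was at 1342 CPM in these cells on day 7 against 14.0 in the rest, and Bpifb1, a secreted lipid-binding protein, at 1325. Among other genes higher in them on day 7 were Cytl1 (3311 against 268 CPM), Eln (660 against 37.0) and Stc1 (889 against 12.3). Col2a1 (15764 against 42722) and Acan (938 against 2083) were lower. The median of these day-7 cells was 7.36 gate-marker UMIs per 1000, below the cartilage-rich cutoff. The log2 ratio of Msmp in chondrocytes was -4.00 in Xist-only and -1.21 in Y-only cells, so it was lower in both by different amounts.

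The genes with the most extreme ratios in chondrocytes rested on few cells. Of the 12 with the largest ratio, 8 had more than 50% of their UMIs in 10 cells, and so had 5 of the 12 with the smallest. Mpo, the neutrophil and progenitor peroxidase, was an exception among them, with 18 UMIs in 18 cells on day 7 and 131 UMIs in 129 cells on day 8. Grin2a, a glutamate receptor subunit, was at 1.52 and 10.8 CPM. The others with the largest ratios were Nts, Gzmd, Gzme, Angptl7, Ccl17, Il1b, Htra4, H2-Aa, Cd74 and Mstn, several of them genes of blood cells. After Msmp the smallest ratios were those of Klrb1a, H1f6, Alox8, Wfdc2, Ccdc7b, Hemgn, Sox1ot, Bpifb1, Vmn1r188, Dynlt2a3 and Cacng8.

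Macrophages were compared over 9731 genes in 84 and 395 cells, and 11% of them were called higher on day 8 and 12.3% lower (median -0.06). Antigen presentation genes of class II were higher in all 6 measured members, with a median of 1.39. Cd74, the class II invariant chain, was at 253 and 473 CPM, H2-Aa at 71.6 and 209, H2-Ab1 at 77.1 and 281, and H2-Eb1 at 37.2 and 124. Their UMIs were unevenly spread: 10 of the 395 day-8 macrophages held 62.5% of the Cd74 UMIs, 69.4% of H2-Aa, 70.7% of H2-Ab1 and 71.3% of H2-Eb1. The share of cells did not differ with the level: H2-Ab1 had a UMI in 11 of 84 cells on day 7 and 59 of 395 on day 8, and in 10.7% and 6.33% of thinned cells, so no order is read from the shares. The median was 0.64 in Xist-only and 2.35 in Y-only macrophages.

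Genes of resident tissue macrophages went the other way. Of 13, none was called higher and 5 lower, with a median of -0.34. Lyve1, a hyaluronan receptor, was at 183 and 48.6 CPM, Cd163, which takes up hemoglobin complexes, at 106 and 34.1, Cbr2 at 66.1 and 29.7, F13a1, a coagulation factor subunit, at 453 and 260, and Timd4, a receptor for dying cells, at 12.4 and 7.98. Mrc1, the mannose receptor (1083 and 856), and C1qa, of complement (1109 and 1162), both markers of the macrophage gate, were not called. The median was -0.77 in Xist-only cells but 0.12 in Y-only cells, so the lower level was not seen in both. Interferon response genes were lower in 8 of 16 and higher in none, with a median of -0.66: Rsad2, an antiviral enzyme, was at 40.0 and 8.34 CPM and Ifitm3 at 260 and 142. The median was -0.29 over members with at least 100 UMIs and -0.23 in Y-only macrophages, below 1.5-fold in both.

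Inflammation genes of macrophages were higher in 8 of 21 and lower in 1, with a median of 0.49. Il1b, the interleukin 1 beta cytokine, was at 468 and 742 CPM, Il1a at 88.2 and 173, Cxcl2, a chemokine for neutrophils, at 1061 and 1700, and Ptgs2, the inducible cyclooxygenase, at 82.6 and 214. Il1b was in 14.3% and 25.6% of thinned macrophages and in 0.305% and 1.48% of thinned chondrocytes. Saa3, the lower call, had 30 of its 31 day-7 UMIs in 1 cell. Heat shock genes were higher in 6 of 15 (median 0.51), and 11 of 14 collagens were higher (median 1.21) although macrophages do not make them.

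The macrophage genes with the most extreme ratios were thinly covered. Thbs4, Bambi, Ppfia4 and Sema3c had no UMI on day 7, and Clec3b had 1, against 30 to 59 UMIs on day 8. Against 3 UMIs for the missing counts, Thbs4 was at least 3.42-fold higher. Exoc3l2, Saa3, Vtcn1, Rasgrp3 and Lyve1 had the smallest ratios, and Rasgrp3 was at 42.7 and 10.9 CPM.

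Endothelial cells were compared over 8495 genes in 56 and 276 cells, with 10.1% called higher, 13.8% lower and a median of -0.06. General endothelial genes differed little. Emcn, a sialomucin of capillaries and veins, was at 953 and 940 CPM, and Kdr, the main VEGF receptor, at 672 and 668. Both are markers of the endothelial gate, so their levels were partly set by the choice of cells. Plvap, of fenestrated vessels and not a gate marker, was at 460 and 580. None of 16 capillary and tip-cell genes was called higher, and Angpt2 and Cxcr4 were lower. Of 13 sinusoidal and venous genes 5 were higher and 1 lower, with a median of 0.11. Selp, the P-selectin that slows leukocytes, was at 438 and 805 CPM and in 17.9% and 23.2% of thinned cells, and Vcam1, an adhesion molecule for leukocytes, at 29.8 and 115.

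Hemogenic genes, those of endothelium that gives rise to blood cells, were lower where called. Of 10 measured, 4 were lower and none higher, with a median of -0.21. Gata2, a transcription factor of blood stem cells, was at 39.8 and 22.6 CPM on 16 and 35 UMIs, Kit, the stem cell factor receptor, at 89.5 and 58.2, Adgrg1 at 64.7 and 38.1, and Mecom, which also marks arteries, at 537 and 355. Runx1, the factor that starts the transition to blood, was at 17.4 and 22.0 and was not called. The share of endothelial cells was 4.86-fold higher on day 8 in the same libraries, so these levels refer to a larger class.

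Interferon response genes were lower in 9 of 13 endothelial members and higher in none, with a median of -1.02. Cxcl10, a chemokine, was at 99.5 and 33.0 CPM, and Irf1, a transcription factor induced by interferon, at 127 and 73.7. Rsad2 had 48 UMIs in 1 day-7 cell, and with the cell richest in these genes left out of each library the median was -0.49. The medians were -0.26 in Xist-only and -0.19 in Y-only cells, far smaller than over all cells. Genes of G2 and mitosis were lower in 7 of 20 (median -0.42), the opposite of chondrocytes, and heat shock genes higher in 4 of 15 (0.45). Immediate early genes were higher in 7 of 23 and lower in none.

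A few day-8 endothelial cells carried genes of lymphatic vessels. Prox1, the factor that sets lymphatic identity, had a UMI in 0 of 56 cells on day 7 and 12 of 276 on day 8, which is 4.35%. By the same limit of 3 counts, 0 of 56 allows up to 5.36%, so the difference was not detectable at this number of cells. Ccl21a, a chemokine of lymphatic endothelium, had no UMI on day 7 and 356 UMIs in 6 cells on day 8. These were 2.17% of the day-8 cells, also below the 5.36% limit for day 7. Its summed level was 30.8-fold higher against 3 UMIs, a value that leaves out the spread between cells. Mmrn1 was in 12 day-8 cells and none on day 7. Lyve1 was in 1 and 11 cells, with a ratio of 32.7 (5.77 to 1303). That interval treats UMIs as separate counts, and 10 cells held 125 of the 126 day-8 UMIs. On day 7, 1 cell held 1642 of the 1651 Mmp13 UMIs and 1 cell held 163 of the 167 Ccl3 UMIs, and Gkn3, Mmp10 and Ccl5 each had more than 50% of their UMIs in 1 cell. Igfbp5 had no UMI on day 7 and 64 on day 8.

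**Figure D4:**
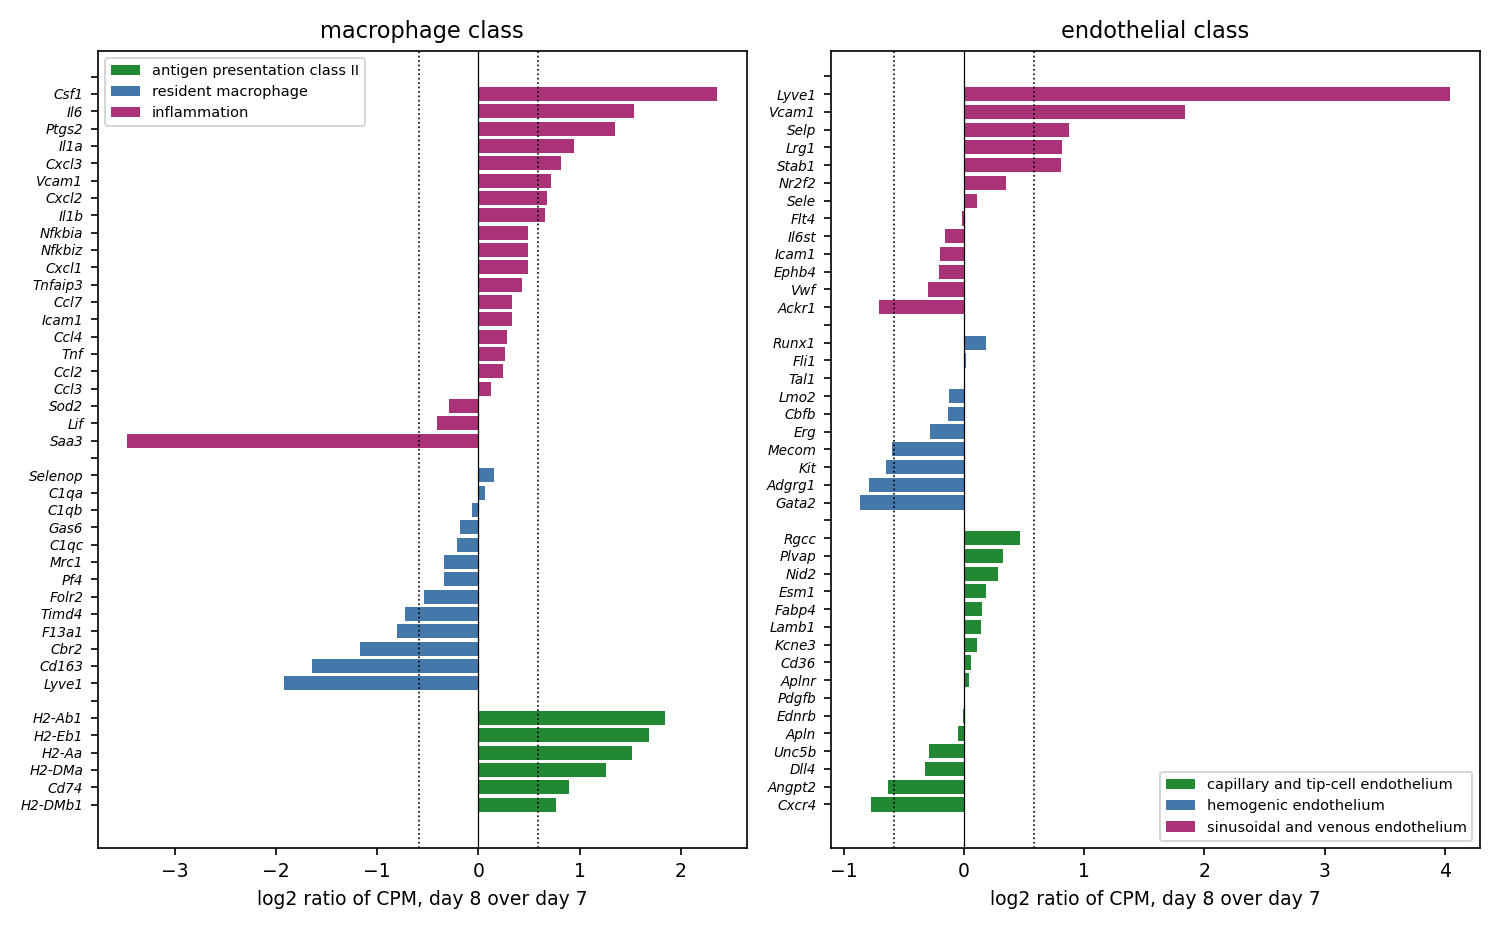
Log2 ratios of day 8 over day 7, 1 bar a gene, for members of 3 lists in macrophages and 3 lists in endothelial cells, with dotted lines at 1.5-fold. In macrophages all 6 class II genes point above 0 while Lyve1 and Cd163 point below it, and in endothelium 4 of 10 hemogenic genes lie beyond the lower line.

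Osteoclasts (64 and 174 cells, 8370 genes, 10.8% higher and 12% lower, median -0.02) had no call among 14 resorption genes, with a median of 0.02. Several of these genes, Acp5 and Ctsk among them, are markers of the osteoclast gate. Their levels were thus partly set by the choice of cells. G2 and mitosis genes of osteoclasts were higher in 11 of 18, with a median of 0.65, and heat shock genes in 9 of 15, with a median of 0.77. Matrix proteases were lower in 8 of 18 and angiogenic ligands in 6 of 12. Cxcl12, a chemokine that holds stem cells in marrow, was at 264 and 8.83 CPM, but 146 of its 147 day-7 UMIs lay in 1 cell. Msmp was the smallest ratio, with 3510 and 56 UMIs, of which 2089 lay in 1 day-7 cell. Wfdc2, Ankrd35 and Ccl3 were the other lowest, and Mfap5, Cryba2, Dpt, Thbs4 and Col10a1 the highest. All 10 of these genes had more than 50% of their UMIs in 10 cells, and 48.4% and 48.3% of the osteoclasts sat at the minimum of 3 markers.

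Mural cells (51 and 137 cells, 5814 genes, 10.7% higher and 15.2% lower, median -0.04) had heat shock genes higher in 6 of 14 and hypertrophic genes lower in 4 of 6. Acta2 and Tagln, the contractile genes of smooth muscle, were called lower. Cxcl12 and Vcam1 were called higher. Prg4 was at 362 and 1992 CPM, with Thbs4, Cxcl2, Chil1 and Ccl7 as the other largest ratios, and Ccl20, Pi15, Frmd5, Ccdc162 and Dpt had the smallest. Each of these 10 also had more than 50% of its UMIs in 10 cells.

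**Figure D5:**
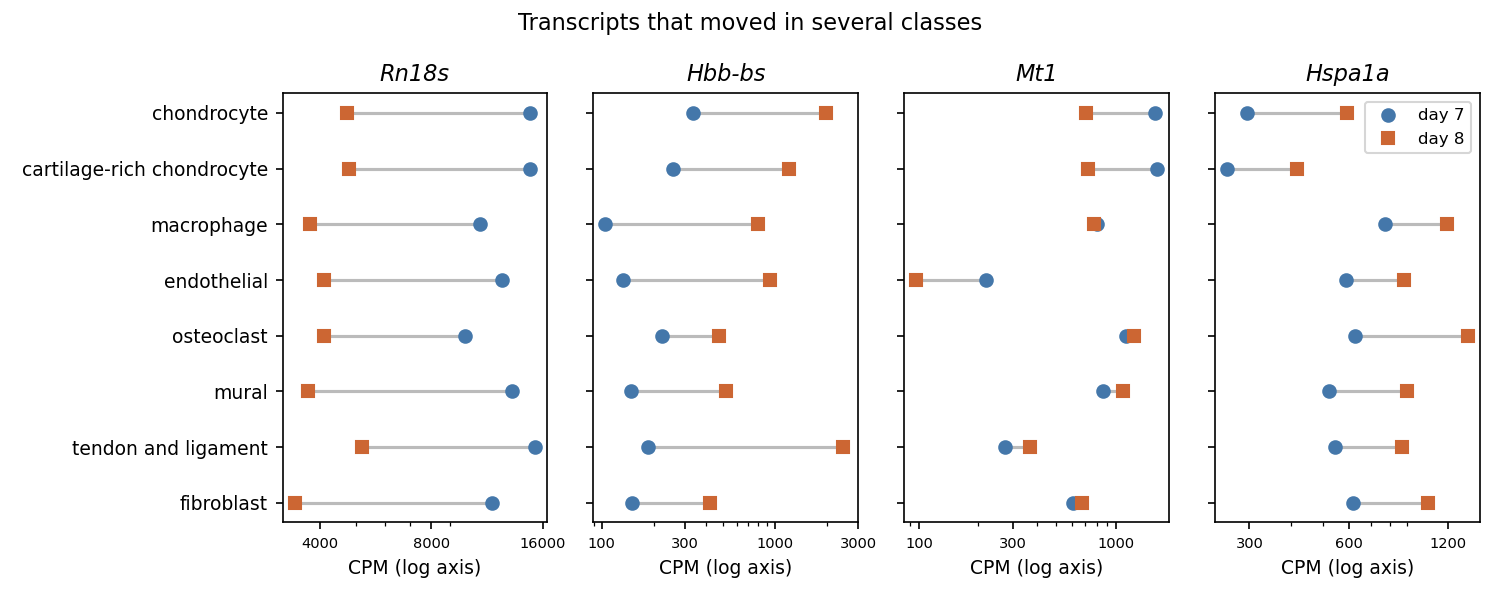
Summed levels of Rn18s, Hbb-bs, Mt1 and Hspa1a on day 7 (circles) and day 8 (squares), in CPM on log axes, in each of the larger classes. Rn18s is lower and Hbb-bs and Hspa1a are higher on day 8 in every class drawn, while Mt1 is at 1581 and 705 CPM in chondrocytes and at 804 and 777 in macrophages.

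Sums over the whole library joined makeup and level. A ratio of 1.5-fold was passed upward by 3357 of 20035 genes (16.8%) and downward by 1348 (6.73%), and the median log2 ratio was 0.12. On the TMM scale, which brought the median to -0.01, there were 2591 higher and 1957 lower, so 57.0% of calls were higher against 71.3% on the CPM scale. As arithmetic, each class was given its day-7 share of UMIs with its day-8 level. Of the 3357 higher genes, 564 (16.8%) were then still at least 1.5-fold higher, and with only the shares changed 922 (27.5%) were. With chondrocytes split at the cartilage-rich cutoff these became 316 (9.41%) and 1099 (32.7%). Of the 1348 lower genes 312 (23.1%) stayed lower at day-7 shares and none was reached from shares alone. These ratios had 1 CPM added to each level, a larger addition than the 1 UMI added to each sum for the calls. It makes the ratios of genes at low levels smaller, so genes that did not stay cannot be put down to makeup.

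The whole-library genes with the largest ratios were mostly those of rare cells. Ccl21a had 0 and 384 UMIs, 121-fold higher against 3 UMIs, and 10 cells held 360 of the day-8 UMIs. Mcpt8 and Prss34, proteases of basophils, had 482 of 601 and 210 of 239 day-8 UMIs in 1 cell. S100a8, a neutrophil and monocyte protein, was at 12.0 and 84.9 CPM, and Depp1 at 2.45 and 18.4. Gzmd, Angptl7, Gzme, Rbp7, Clec10a, Nts and Htra4 made up the rest. Cma1 and Mcpt4, proteases of connective tissue mast cells, had 150 and 124 UMIs on day 7 and none on day 8, with 138 and 116 of them in 1 cell. Against 3 UMIs they were 52.9-fold and 43.7-fold lower. Folds against 3 UMIs treat UMIs as separate counts, so with UMIs in so few cells they set no lower limit. Msmp (2303 and 377 CPM), Alox8 (22.6 and 3.88) and Wfdc2 (33.1 and 6.17) followed, with H1f6, Klrb1a, Ccdc7b, Sox1ot, Bpifb1, Vmn1r188 and Olfr1369-ps1.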

How the data were processed

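The authors deposited UMI counts per gene and barcode, not normalized, as the whole numbers of the files show, and the labels give 1 library for each day. Per the submitters' processing notes, the genome was GRCm39. Not given in the sources used here were the read counter, the gene models and the calling of cells. The day-10 and day-12 matrices were not analysed here beyond their barcode counts. Symbols were taken from the files, with 55416 features.

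Raw counts were summed over all kept cells and over the cells of each class and scaled to CPM. No doublet caller was run. An alternative took out cells that passed the chondrocyte gate and another gate. Thinning drew 1000 UMIs from each cell without replacement. Named genes were the 12 largest and 12 smallest log2 ratios (whole library, chondrocytes; at least 100 UMIs in the higher library), or 5 and 5 (other classes with at least 50 cells; at least 30 UMIs), plus list and marker genes. Ratios were tested on simulated data. The members, gates and 46 gene lists were chosen with earlier results of these data known. The cartilage-rich cutoff, the split by sex-linked RNA, the set of widely detected genes and the Msmp cutoff were chosen after the data were seen, as were the lymphatic genes. Alternatives changed gates, cell filters, scaling and thresholds. Python 3.11.15, NumPy 2.4.6, SciPy 1.17.1, pandas 2.3.3 and matplotlib 3.10.9 were used. R 4.3.3 with edgeR 4.0.16 served only for TMM factors. One item is not reported here. Promoters were read from RefSeq tables on GRCm38.p6.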

Additional observations from a re-analysis of the deposited data

Results flagged for a closer look

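Some gene lists had medians on opposite sides of 0 in different classes, with at least 5 measured members in each. None of these differences was tested, since there was 1 library a day, and the values compare day 8 with day 7 as log2 ratios.

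The interferon response list had a median of 0.62 in gated chondrocytes against -1.02 in endothelium, -0.66 in macrophages and -0.68 in osteoclasts. The differences were 1.63, 1.28 and 1.29. As given above, the chondrocyte and macrophage medians were below 1.5-fold over members with at least 100 UMIs. The endothelial median was below 1.5-fold in Xist-only cells, in Y-only cells, and with the cell richest in these genes left out of each library. The marrow niche factor list had a median of 0.89 in chondrocytes and -0.86 in osteoclasts, a difference of 1.76. The arterial endothelium list had a median of 0.65 in chondrocytes and -0.80 in osteoclasts, a difference of 1.45. The hypertrophic cartilage list had a median of 0.66 in macrophages, -1.70 in endothelium and -0.71 in mural cells. Endothelium minus macrophages was -2.36 and macrophages minus mural cells 1.37. In endothelium 1642 of the 1651 day-7 Mmp13 UMIs and 915 of the 940 day-7 Spp1 UMIs lay in 1 cell. The 26 day-7 UMIs of Ibsp lay in 3 cells. Col10a1 (3 and 96 UMIs) and Panx3 (6 and 44) were higher on day 8 there. The endothelial median thus rested on few genes and few day-7 cells. The lists of another tissue measured in a class, such as hypertrophic genes in macrophages, hold RNA that the class is not known to make.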

How the results depend on the processing

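No paired analysis was possible because each day had 1 library. With 1 library a day no setting gives an error of the day, and classes of 51 to 395 cells limit what can be seen in genes used by few cells. Of 218 values of the main results under alternatives, 169 kept their direction and size, 16 were weaker, 4 stronger, 29 moved and 0 reversed. Of 497 other values, 449 did and 1 reversed: the monocyte share in Y-only cells, at -0.475 as a log2 ratio. The erythroid share, not among these values, was also lower in Y-only cells (17 and 1 cells). The cause of the moves was not tested.

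The chondrocyte share (log2 ratio -0.23) was -0.37 with gates at 2 markers, -0.31 in thinned cells, -0.18 with each cell in the gate with most markers, -0.12 without cells that passed the chondrocyte and another gate, -0.25 over every barcode, -0.19 at 2000 UMIs, -0.36 with the tendon and fibroblast gates first, -0.19 in Xist-only cells, and -0.40, -0.54 and -0.57 at 5, 10 and 20 marker UMIs per 1000. The endothelial share (2.28) was 3.00 with the most markers, 3.36 without cells of both gates, 1.24 in Xist-only and 3.46 in Y-only cells. The macrophage share (2.21) was 2.74 and 4.44 under the same pair of gate settings. Without cells of both gates these classes held 3 and 29 endothelial cells and 2 and 41 macrophages. The share of all blood (1.73) was 2.43 and 3.20, and 2.02 and 1.23 in Xist-only and Y-only cells, and the tendon share (2.85) 1.99 and 3.81. The articular surface subset (0.43) was 0.22 at 2 markers, 0.81 at 4, 0.72 in thinned cells, 0.30 at 2000 UMIs, 0.29 in Xist-only and 0.62 in Y-only cells.

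Whole-library calls higher on day 8 (3357) were 8453 at a minimum of 1 UMI, 2075 at 100 UMIs and 1569 at 2-fold, and calls lower (1348) were 4553, 602 and 486. Chondrocyte calls were 7971, 1185 and 1053 higher (2538) and 4206, 455 and 407 lower (1107). Among the lists of the main results, medians no longer past 1.5-fold were those of G2 and mitosis (0.57 with TMM, 0.42 without dividing cells, 0.55 in cartilage-rich cells) and heat shock (0.56 in Y-only, 0.53 in cartilage-rich cells). Other chondrocyte list medians also dropped below it in cartilage-rich cells: tendon and ligament (0.54), marrow niche (0.49), osteoclast (0.41), interferon (0.40), arterial (0.31) and class II (0.58). At 2-fold the medians of articular surface (0.89), G2 and mitosis (0.66) and heat shock (0.70) were below the threshold.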
